A study of Mus musculus with 24 samples.

Results

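Granulocyte-macrophage progenitors (GMP) that carry both lesions of the study, Ern1 deletion and Flt3-ITD, were compared with wild-type GMP, to ask which genes stay away from the wild-type level when both are present. The comparison uses 6 of the 24 RNA-seq libraries, 3 labelled IRE1_KO_ITD_GMP and 3 labelled WT_GMP. Genes were kept where at least 3 of these 6 libraries had at least 1 FPKM (fragments scaled to transcript length and sequencing depth), which left 10809 of 23991 gene symbols. The IRE1_KO_ITD mice have the genotype Ern1(fl/fl)-VavCre-Flt3-ITD: the Ern1 alleles are floxed, Vav-Cre drives recombination in blood cells, and Flt3 carries an internal tandem duplication. The reference mice are labelled wild type. Libraries of the single mutants, Flt3-ITD (ITD) and Ern1(fl/fl)-VavCre (IRE1_KO), and of LSK cells (lineage-negative Sca1+ cKit+ stem and progenitor cells) of the same genotypes were used beside the main comparison. All mice were on a C57BL/6 background, and all cells were sorted by flow cytometry from bone marrow; no age or treatment is given. Each genotype has 3 libraries per cell type, and the labels do not say that these came from separate animals, so that p-values measure the spread between these libraries.

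IRE1, encoded by Ern1, is an endoplasmic reticulum (ER) membrane sensor of unfolded protein. When active, its RNase removes a short intron from Xbp1 mRNA, and the spliced product encodes a transcription factor for genes of protein translocation, folding, glycosylation, ER export and ER-associated degradation. Flt3 is a cytokine receptor of early blood progenitors, and the internal tandem duplication, a frequent lesion of acute myeloid leukemia, makes it signal without ligand, with STAT5 among its effectors. GMP are bone marrow progenitors that give rise to neutrophils and monocytes, and they make large amounts of granule proteins that pass through the ER.

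The 6 libraries were close in depth as far as the deposited values show it. Relative depth read from the low FPKM values was 1.0 to 1.04 in the double mutant and 0.931 to 0.932 in WT replicates 2 and 3, with WT replicate 1 set as the unit, and no read totals were used. The sum of 10 GMP marker genes (Mpo, Elane, Prtn3, Ctsg, Ms4a3, Fcgr3, Cebpa, Csf1r, Cd34 and Kit) was 19200 to 22300 FPKM in the double mutant and 30300 to 31800 FPKM in WT GMP, against 1450 to 3490 FPKM in WT LSK cells. The sum of 8 stem cell markers was 19.7 to 42.6 FPKM in the double mutant and 23.8 to 24.9 FPKM in WT GMP, against 249 to 280 FPKM in WT LSK. Both sorted groups thus held the markers of their label. Sex read from Xist and Y-linked genes was the same in both groups, with 1 female and 2 male libraries each.

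Ern1 itself (chr11:106397620-106487796, mm10) was higher in the libraries labelled as deleted. The 3 double-mutant libraries had 26.6, 28.5 and 33.2 FPKM, against 10.4, 9.2 and 7.58 FPKM in WT. The IRE1_KO libraries lay between, with 19.3, 24.5 and 17.9 FPKM, and the ITD libraries had 13.9, 11.8 and 16 FPKM. All double-mutant values lay above all WT values, by 1.60 ± 0.16 (SE) on the log2(FPKM + 1) scale (limma adjusted p = 0.000174). This value goes against what a loss of the transcript would give. The reads behind 1 value per gene may come from exons outside the floxed part, so the value says nothing on the deletion or on the label, and every direction below is that of the libraries labelled IRE1_KO_ITD and IRE1_KO.

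Xbp1 (chr11:5520641-5525993), whose mRNA is the main substrate of IRE1, had 125, 182 and 180 FPKM in the double mutant and 110, 93.1 and 100 FPKM in WT. The groups did not overlap, and the difference of 0.66 ± 0.18 passed the test (limma adjusted p = 0.0222). It did not pass without WT replicate 3, WT replicate 2, double-mutant replicate 3 or double-mutant replicate 2, with adjusted p of 0.0689 to 0.0806. Spliced and unspliced Xbp1 are not separated in these values. Flt3 (chr5:147330741-147400489) had 20.2, 25.5 and 28.5 FPKM in the double mutant and 4.54, 12.8 and 10.5 FPKM in WT, a difference of 1.41 ± 0.44 (limma adjusted p = 0.0421). That call was lost on leaving out WT replicate 3 or 1, IRE1_KO replicate 3 or any double-mutant library, and under both other scalings (adjusted p 0.0532 to 0.131 over the 11 settings that lost it). Kit, the stem cell factor receptor, had 42.4, 37.3 and 46.9 FPKM in the double mutant and 36.8, 34.5 and 32 FPKM in WT, and its difference of 0.28 ± 0.14 did not pass (limma adjusted p = 0.154).

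**Figure D1:**
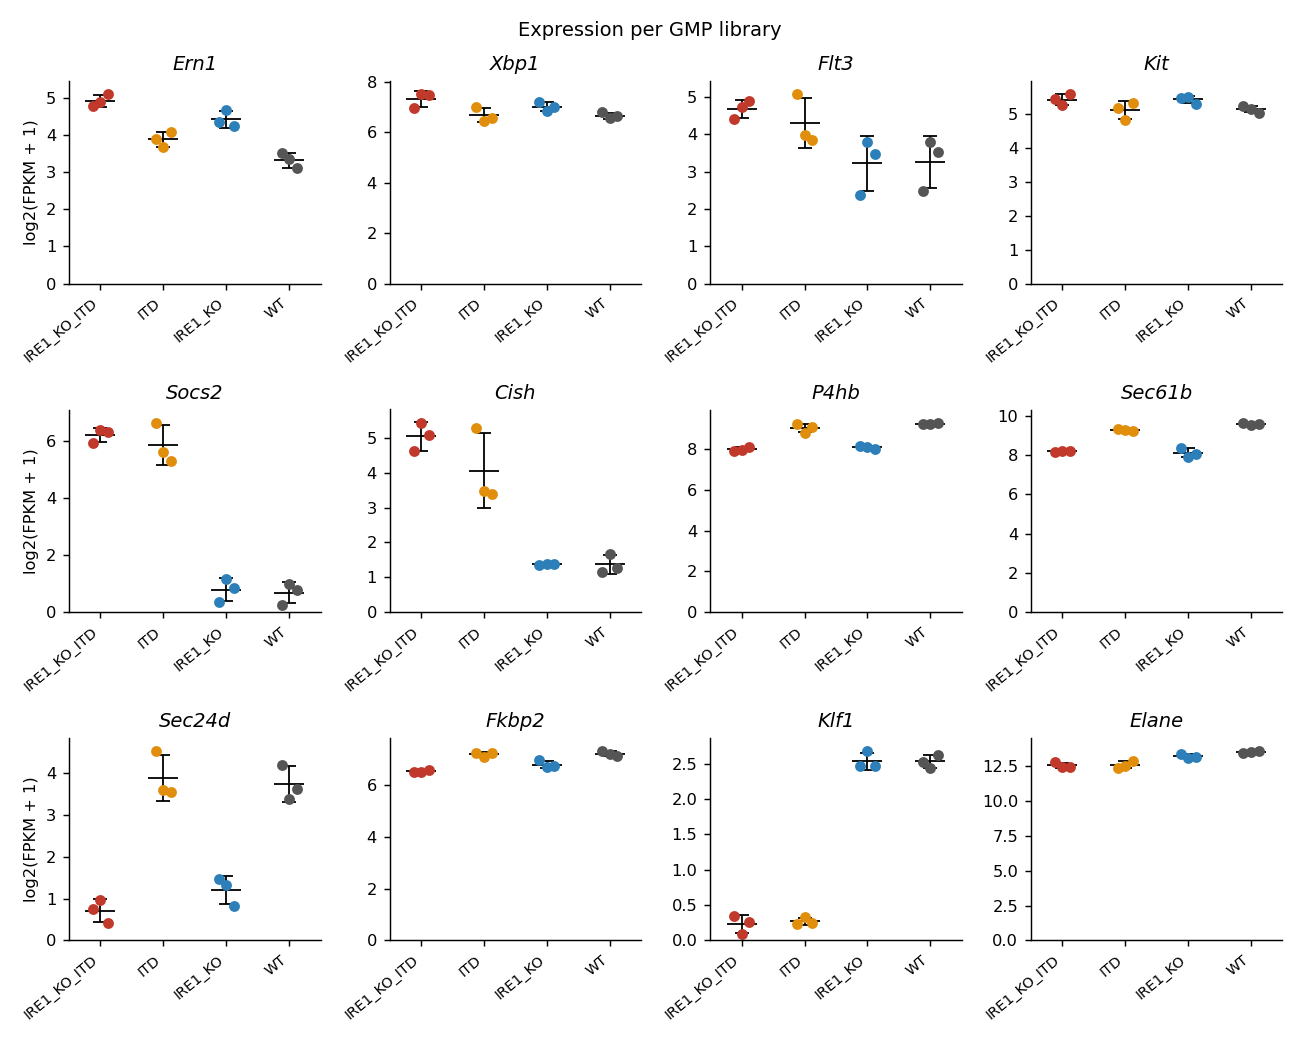
Expression of 12 genes in each GMP library, as log2(FPKM + 1) on the vertical axis, by genotype on the horizontal axis. Each point is 1 library and the bar is the mean with its SD; Ern1 and Socs2 lie above WT in the double mutant, while P4hb, Sec61b and Sec24d lie below WT in the double mutant and in IRE1_KO.

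At a limma adjusted p under 0.05, 2498 genes differed between double-mutant and WT GMP, 23.1% of those tested. Of these, 1854 were higher (17.2% of those tested) and 644 were lower (5.96%), and a change of at least 1 on the log2 scale was seen in 315 higher and 194 lower genes. The median over all tested genes was 0.17, so that the direction of small changes depends on scaling. With a median-ratio size factor the split was 1165 higher and 1220 lower, and with quantile normalization 1081 higher and 931 lower, with a median over all genes of 0.02 under both. The count also depended on single libraries: it was 1253 without WT replicate 3, 1440 without WT replicate 2, 1523 without double-mutant replicate 2 and 1552 without double-mutant replicate 3. Set side by side with the single mutants, which share the WT libraries, ITD GMP differed from WT in 1149 genes (10.6%; 796 higher and 353 lower) and IRE1_KO GMP in 60 genes (0.555%; 3 higher, or 0.0278%, and 57 lower). The 3 and 3 libraries did not overlap for 46.3% of tested genes, 33.6% with the double mutant above and 12.6% with it below. Of the tested genes, 194 passed the filter through the double mutant alone and 107 through WT alone, with the other group under 1 FPKM in all 3 libraries; such genes had to differ, so no p is given for them. In bulk RNA, fewer cells of a type and less RNA per cell cannot be told apart.

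**Figure D2:**
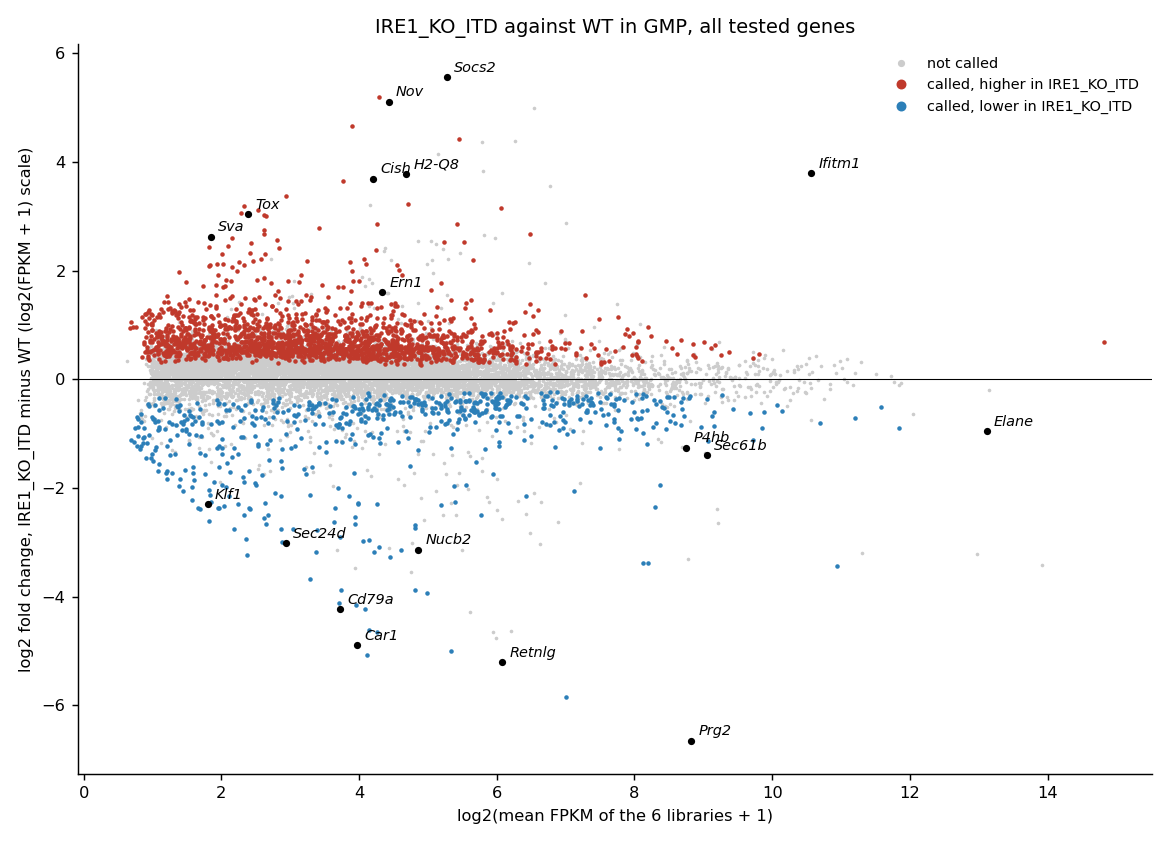
Difference between double-mutant and WT GMP (vertical axis, log2(FPKM + 1) scale, IRE1_KO_ITD minus WT) against the mean level of the 6 libraries (horizontal axis, log2). Each point is 1 of 10809 tested genes, red for the 1854 called higher and blue for the 644 called lower; Nov and Sva are listed at 0 in all WT libraries, so their height depends on the added constant of 1.

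Genes of the ER secretory pathway were mostly below wild type. Of 66 tested members of a list of translocation, glycosylation, folding, ER export and ER-associated degradation genes, 40 fell and 1 rose, with a median of -0.52 against 0.17 over all tested genes. The number that fell was 34 to 41 when each of the 12 GMP libraries was left out in turn, and it was 50 with the size factor and 45 with quantile normalization. Of 22 ER chaperones and folding enzymes, a list that shares members with the first, 13 fell and 0 rose, with a median of -0.56. Sel1l, an adaptor of ER-associated degradation and the member that rose, changed by 0.68; it and the genes said below to be picked were chosen after their values were seen.

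Sec61b (chr4:47474661-47483233) encodes a subunit of the channel through which proteins enter the ER. It had 282, 299 and 292 FPKM in the double mutant and 803, 744 and 761 FPKM in WT. No library of either group came near the other, and the difference was -1.40 ± 0.11 (limma adjusted p = 3.41e-05). P4hb (chr11:120560298-120573253), a protein disulfide isomerase, had 239, 246 and 273 FPKM in the double mutant and 591, 601 and 626 FPKM in WT, a difference of -1.26 ± 0.11 (limma adjusted p = 7.69e-05). Its groups were likewise apart. Ssr2, of the translocon-associated protein complex, fell by 1.10 ± 0.11, and Dad1, a subunit of the oligosaccharyltransferase that glycosylates entering proteins, fell by 0.85 ± 0.07. The folding catalysts Ppib and Fkbp2, prolyl isomerases of the ER, fell by 0.81 ± 0.08 and 0.68 ± 0.09. Erp44, which holds back unfinished thiol-linked proteins, had 34.6, 33.7 and 34.8 FPKM in the double mutant and 55.5, 58 and 51 FPKM in WT.

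Sec24d (chr3:123264801-123365641), a cargo-binding subunit of the COPII coat that carries proteins out of the ER, was among the lowest relative to WT. It had 0.691, 0.954 and 0.338 FPKM in the double mutant and 17.4, 9.42 and 11.4 FPKM in WT, a difference of -3.02 ± 0.30; it passed the filter through WT alone. IRE1_KO GMP were also low, with 1.76, 1.51 and 0.768 FPKM, while ITD GMP had 22, 11 and 10.7 FPKM. The calcium-binding protein gene Nucb2 (chr7:116504352-116540588) had 5.18, 4.21 and 5.41 FPKM in the double mutant and 48.7, 49.8 and 55.2 FPKM in WT, a difference of -3.14 ± 0.16 (limma adjusted p = 2.51e-06). For Nucb2 both single mutants lay between, with 19.7, 27.7 and 27.2 FPKM in ITD and 17.6, 14.1 and 19.9 FPKM in IRE1_KO. Dnajc3 (chr14:118937932-118981702), an ER co-chaperone that also inhibits the kinase PERK, had 19.4, 22 and 25 FPKM in the double mutant and 41.1, 39.1 and 43.8 FPKM in WT, a difference of -0.88 ± 0.11 (limma adjusted p = 0.00061).

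The ER stress response element, bound by ATF6 and XBP1 together with NF-Y, was searched in promoters as CCAAT followed after 9 bases by CCACG, on both strands. It was found in 33 of 27025 RefSeq promoter windows of 250 bases before the start that the RefSeq promoter table uses (0.122%) and in 16 of 8067 windows of tested genes (0.198%). Of the chaperone list, 17 of 22 members had a window and 7 held the element (41.2%), and of the secretory list 52 of 66 had a window and 3 held it (5.77%). Of the 16 tested genes with the element, 8 belong to the 2 ER lists; 4 of these fell, and among the other 8 none passed the limma test. The windows of the 4 that fell (Pdia6, Creld2 and Hspa5 picked for it, besides Dnajc3) and of Calr, which holds the element and did not pass (-0.02 ± 0.12, limma adjusted p = 0.921), are given from RefSeq GRCm38.p6 (mm10), 5′ to 3′ on the gene's strand, with the element in capitals.
Dnajc3: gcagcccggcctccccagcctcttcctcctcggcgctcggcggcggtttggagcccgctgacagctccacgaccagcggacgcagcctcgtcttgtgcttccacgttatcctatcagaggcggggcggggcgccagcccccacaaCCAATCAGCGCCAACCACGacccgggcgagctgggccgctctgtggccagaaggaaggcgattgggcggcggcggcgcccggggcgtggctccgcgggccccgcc
Pdia6: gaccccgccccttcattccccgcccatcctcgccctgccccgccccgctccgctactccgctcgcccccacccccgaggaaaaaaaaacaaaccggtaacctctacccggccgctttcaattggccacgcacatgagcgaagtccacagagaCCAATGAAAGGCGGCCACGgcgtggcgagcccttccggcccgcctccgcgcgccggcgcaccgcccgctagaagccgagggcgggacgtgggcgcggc
Creld2: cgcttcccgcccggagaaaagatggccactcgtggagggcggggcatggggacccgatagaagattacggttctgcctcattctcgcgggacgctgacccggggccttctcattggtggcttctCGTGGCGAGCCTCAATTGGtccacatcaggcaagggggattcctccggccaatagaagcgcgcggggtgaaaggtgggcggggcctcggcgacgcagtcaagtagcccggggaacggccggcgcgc
Hspa5: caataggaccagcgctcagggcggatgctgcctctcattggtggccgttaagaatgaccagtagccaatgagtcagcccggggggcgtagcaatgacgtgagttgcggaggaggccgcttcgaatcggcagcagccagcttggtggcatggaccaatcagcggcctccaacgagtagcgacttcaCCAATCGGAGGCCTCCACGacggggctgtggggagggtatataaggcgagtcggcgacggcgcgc
Calr: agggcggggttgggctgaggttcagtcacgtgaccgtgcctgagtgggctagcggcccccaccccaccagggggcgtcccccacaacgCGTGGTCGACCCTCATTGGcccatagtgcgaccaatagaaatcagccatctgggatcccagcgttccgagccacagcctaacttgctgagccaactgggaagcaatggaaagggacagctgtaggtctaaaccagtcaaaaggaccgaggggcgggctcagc
These windows are chr14:118937682-118937931 (plus strand) for Dnajc3, chr12:17266339-17266588 (plus) for Pdia6, chr15:88819396-88819645 (plus) for Creld2, chr2:34771840-34772089 (plus) for Hspa5 and chr8:84846932-84847181 (minus) for Calr. In Creld2 and Calr the element reads in the reverse direction, as CGTGG and 9 bases later ATTGG. Pdia6, a disulfide isomerase, fell by 0.92 ± 0.13, Creld2, an ER-resident folding factor, fell by 0.70 ± 0.16, and Hspa5, the main ER Hsp70 chaperone, fell by 0.55 ± 0.18 (limma adjusted p = 0.0457). The call of Hspa5 was lost under 14 alternatives, among them leaving out WT replicate 3 or 2, double-mutant replicate 3 or 2 or any IRE1_KO library (adjusted p 0.0502 to 0.157), and without it 3 of the 8 fell. The element was thus present both in genes that fell and in calreticulin, a calcium-binding chaperone, which did not pass.

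The windows of P4hb, Sec61b, Sec24d and Nucb2 did not hold the whole element, and Ssr2 had no window to search. The short motif CCACG, present in 42.8% of windows of tested genes, and the core TGACGTG, present in 2.48%, were searched on both strands as well, and are in capitals in the windows of P4hb and Sec24d, shown because both genes were low in the double mutant and in IRE1_KO.
P4hb: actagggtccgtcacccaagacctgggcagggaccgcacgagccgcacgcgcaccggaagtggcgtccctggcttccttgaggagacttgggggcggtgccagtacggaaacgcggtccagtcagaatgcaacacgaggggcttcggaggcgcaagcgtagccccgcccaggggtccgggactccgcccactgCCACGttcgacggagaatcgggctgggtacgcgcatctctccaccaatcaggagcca
Sec24d: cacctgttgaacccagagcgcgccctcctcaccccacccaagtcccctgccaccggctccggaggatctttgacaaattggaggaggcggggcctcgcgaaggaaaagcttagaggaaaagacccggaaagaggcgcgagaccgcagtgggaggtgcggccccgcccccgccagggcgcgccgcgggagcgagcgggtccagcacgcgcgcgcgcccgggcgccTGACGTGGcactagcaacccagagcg
The P4hb window is chr11:120573254-120573503 (minus strand) and the Sec24d window chr3:123267246-123267495 (plus). The start that the table uses for Sec24d lies 2695 bases inside the outer bounds of the gene given above, as it lies inside them for 3712 of the 8067 tested genes with a window. In Sec24d, the core and the reverse complement of the short motif overlap and are marked as 1 run. The window of Sec61b held none of the 3 motifs.

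Whether the ER genes were lower than in GMP with Flt3-ITD alone was tested in the same fit. Double-mutant and ITD GMP differed in 163 genes (1.51% of those tested; 88 higher and 75 lower), with 1974 at an unadjusted p under 0.05. Of the 66 secretory genes 21 were lower in the double mutant than in ITD and 0 were higher, against 0.694% of all tested genes lower. P4hb, at 594, 444 and 539 FPKM in ITD, was lower in the double mutant by 1.05 on the log2 scale (limma adjusted p = 0.00179), and Sec61b, at 641, 631 and 590 FPKM in ITD, by 1.09 (limma adjusted p = 0.00136). The counts rest on the spread shared by all 12 GMP libraries: with the double-mutant and ITD libraries fitted alone, 4 genes passed in all, of which 1 was on the secretory list. The total of 163 was 771 without ITD replicate 1, 43 without ITD replicate 2, 16 without ITD replicate 3, 30, 83 and 88 without double-mutant replicates 1, 2 and 3, and 102, 86 and 74 without WT replicates 1, 2 and 3. The 21 secretory genes became 3 without ITD replicate 3, 6, 8 and 12 without double-mutant replicates 1, 2 and 3, and 12 without WT replicate 3. They became 3 with sex as a covariate, where all ITD libraries are female and the double mutant has 1 female and 2 male libraries, and 7 with a replicate block.

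Against IRE1_KO GMP, the double mutant differed in 1446 genes (13.4%; 963 higher, or 8.91%, and 483 lower, or 4.47%), but of the 66 secretory genes 2 were higher and 2 were lower, with a median of 0.01. The total was 755 and 772 without IRE1_KO replicates 3 and 1, and 724 and 862 without double-mutant replicates 2 and 1. In IRE1_KO against WT, 25 secretory genes fell and 0 rose (median -0.53), where 0.527% of all tested genes fell, and in ITD against WT 6 fell and 0 rose (median -0.22), where 3.27% of all tested genes fell. The departure of the double mutant from the sum of the single-mutant differences was tested as an interaction. In that test 0 of 10809 genes passed in limma (0.0%), with 1403 at an unadjusted p under 0.05 and a lowest adjusted p of 0.179. Without ITD replicate 1, 93 genes passed, and 1 gene each without IRE1_KO replicate 1, 2 or 3 or ITD replicate 3.

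**Figure D3:**
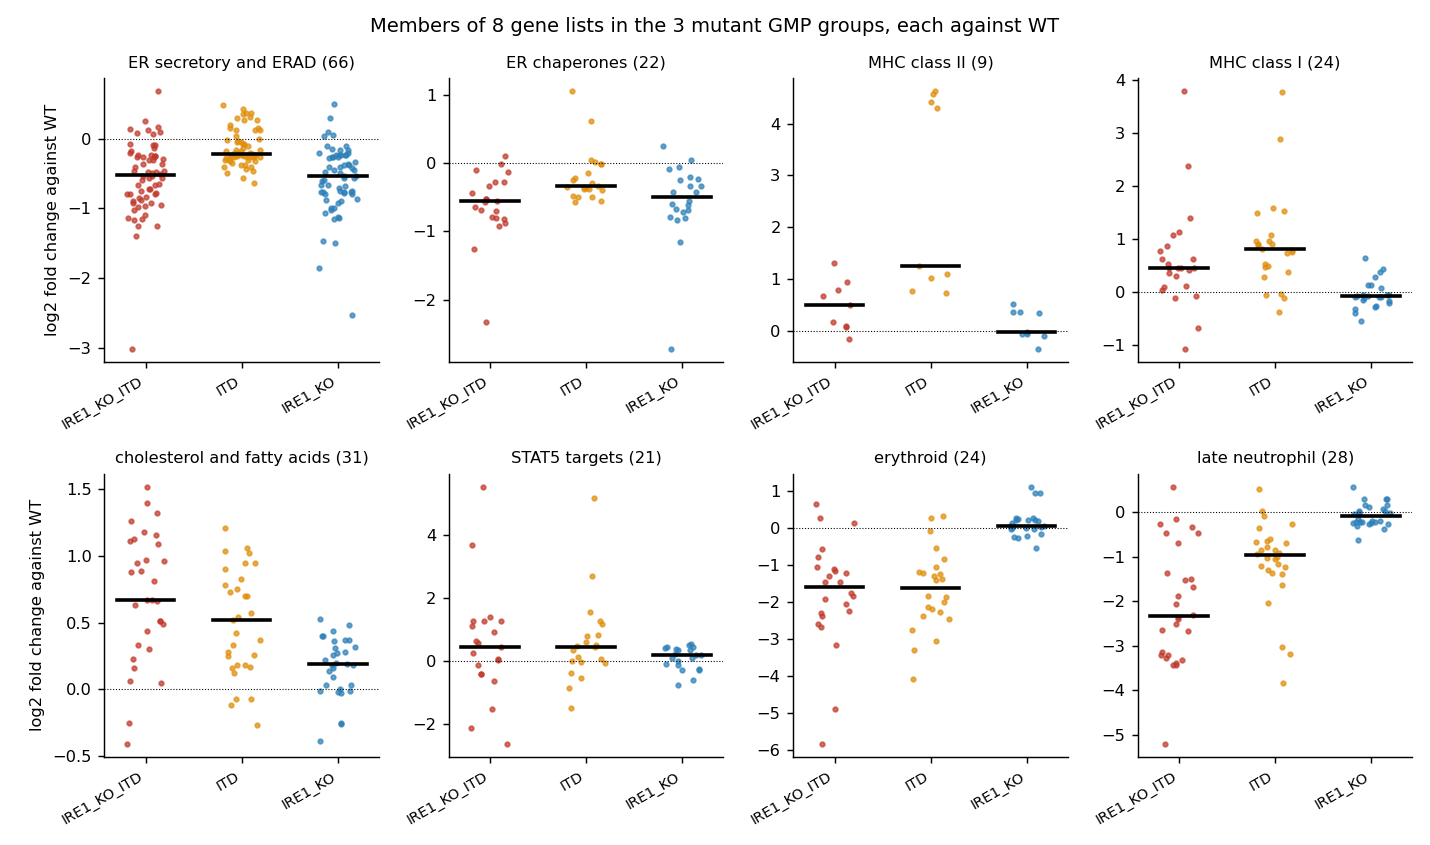
Differences from WT of the tested members of 8 gene lists in double-mutant, ITD and IRE1_KO GMP (vertical axis, log2(FPKM + 1) scale; each point is 1 gene, the black line is the median, and the number of tested members is in brackets). The secretory medians are -0.52 in the double mutant, -0.22 in ITD and -0.53 in IRE1_KO, and the erythroid medians are -1.60, -1.62 and 0.07, over 24 members of which 12 passed the filter through WT alone; the 3 contrasts share the WT libraries.

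The sensors and transcription factors of the unfolded protein response did not move as a group. Of 17 tested, 4 rose and 1 fell, with a median of 0.04, and 2 rose without WT replicate 3, WT replicate 2 or double-mutant replicate 3. The 4 were Ern1 and Xbp1, Mbtps1 (0.72 ± 0.17), the site-1 protease that activates ATF6 and SREBP, whose call was lost without WT replicate 3, WT replicate 2 or double-mutant replicate 3 (limma adjusted p 0.0508 to 0.0552), and Nfe2l1 (0.61 ± 0.12), a factor of proteasome genes. Creb3l2, an ER-bound transcription factor of secretory genes, had 0.44, 0.351 and 0.358 FPKM in the double mutant and 2.63, 1.68 and 2.42 FPKM in WT (-1.22 ± 0.14), and it passed the filter through WT alone. Its IRE1_KO values, 0.132, 0.28 and 0.344 FPKM, were as low, and its ITD values, 2.23, 2.05 and 2.88 FPKM, were in the range of WT or above it. Among 31 tested genes of the ATF4 branch, 7 rose and 1 fell, where 17.2% of all tested genes rose and 5.96% fell, so that the rises were near the share over all genes; Sesn2, an inhibitor of mTORC1 signalling, rose by 1.01 ± 0.17, and Nars, the asparagine-tRNA synthetase, fell by 0.53 ± 0.13, a call lost without WT replicate 3 or 2 or double-mutant replicate 2 or 1 (limma adjusted p 0.0527 to 0.0686). The 7 became 3 without WT replicate 3 or double-mutant replicate 3 and 4 without WT replicate 1 or double-mutant replicate 2, and the split was 6 higher and 5 lower with the size factor and 5 and 4 with quantile normalization. Of 11 tested substrates reported for IRE1-dependent RNA decay, 2 rose (Pdgfrb and Cd180) and 3 fell (Sparc, Erp44 and St3gal5). Cd180 did not pass without WT replicate 3, WT replicate 2 or double-mutant replicate 3 (limma adjusted p 0.0509 to 0.0711). St3gal5, a ganglioside synthase, was picked to complete the count, and Sparc passed the filter through WT alone.

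Among STAT5 target genes stood Socs2, the highest difference of the named genes. Of 21 tested, 7 rose and 3 fell, with a median of 0.44, where 17.2% of all tested genes rose and 5.96% fell. Socs2 (chr10:95383903-95417321), a feedback inhibitor of cytokine signalling, had 61.2, 83.9 and 79 FPKM in the double mutant and 0.197, 0.976 and 0.705 FPKM in WT. The difference was 5.56 ± 0.33, and Socs2 passed the filter through the double mutant alone. ITD GMP were at 99.9, 48.5 and 38.6 FPKM and IRE1_KO GMP at 0.278, 1.24 and 0.786 FPKM, so that Socs2 was high in both groups with Flt3-ITD. Cish (chr9:107296659-107302784), another inhibitor of this family, had 23.7, 42.6 and 33.4 FPKM in the double mutant and 1.23, 2.18 and 1.42 FPKM in WT (3.69 ± 0.42, limma adjusted p = 0.000417). The survival genes Bcl2 and Bcl2l1 rose by 1.41 ± 0.23 and 0.63 ± 0.13, the kinase gene Pim2 by 1.27 ± 0.18 and the cyclin gene Ccnd2 by 1.11 ± 0.21. Ccnd1 and Ccnd3, the other D-type cyclins, fell by 0.63 ± 0.16 and 0.43 ± 0.13, and the third that fell was Oas1a, an antiviral enzyme picked to complete the count. Ccnd1 did not pass without WT replicate 3 or 2 or double-mutant replicate 3 or 1, and it passed the filter through WT alone, while Ccnd3 did not pass whichever library of either group was left out (limma adjusted p 0.0613 to 0.0946). The 3 that fell became 0 without WT replicate 3 or double-mutant replicate 3 and 1 without WT replicate 2 or double-mutant replicate 1.

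Apart from these, the highest rises by the naming rule included several genes that were near zero in WT. Nov (chr15:54745910-54753762), a secreted matrix-associated protein, had 20, 79.9 and 23.4 FPKM in the double mutant and was listed at 0 in the 3 WT libraries, so that no fold is given. Ifitm1, an interferon-induced membrane protein also found in stem cells, had 2570, 3160 and 2730 FPKM in the double mutant and 148, 261 and 215 FPKM in WT (3.79 ± 0.28, limma adjusted p = 3.41e-05). Both were high in ITD GMP as well, Nov at 24.8, 13 and 10.8 FPKM and Ifitm1 at 2430, 1510 and 1200 FPKM. Tox, a nuclear factor of lymphocyte development, had 4.6, 13 and 7.5 FPKM in the double mutant and 0.023, 0.0371 and 0.124 FPKM in WT. S100a4, a calcium-binding protein, had 123, 155 and 79.9 FPKM in the double mutant and 17.8, 9.58 and 9.92 FPKM in WT. Cox4i2, an isoform of a cytochrome c oxidase subunit, rose by 3.23 ± 0.31, Cp, the copper carrier ceruloplasmin, by 3.11 ± 0.30, and Igfbp7, a secreted growth factor-binding protein, by 3.37 ± 0.54. The rule took only genes whose groups do not overlap, and Nov, Tox, Cp and Igfbp7 passed the filter through the double mutant alone.

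Sva was high in both groups labelled with the Ern1 lesion. It had 6.23, 5.13 and 4.25 FPKM in the double mutant and 4.92, 6.56 and 5.58 FPKM in IRE1_KO, while ITD had 0, 0 and 0.0692 FPKM and all 3 WT libraries were listed at 0. Akr1c13, an aldo-keto reductase, was higher in the double mutant than in any of the other genotypes. It has a near-identical copy, Akr1c12, so that the split of reads between them is uncertain. Its values were 90.7, 73.4 and 67.4 FPKM in the double mutant, 34, 27.9 and 25.1 FPKM in ITD, 12.9, 11.8 and 18.3 FPKM in IRE1_KO and 11.3, 13.2 and 13.1 FPKM in WT, with no overlap between the double mutant and any other group. The double mutant was above ITD by 1.38 (limma adjusted p = 0.00654) and above WT by 2.52 ± 0.17 (limma adjusted p = 2.52e-05). Thy1, like Sva, passed the filter through the double mutant alone. Thy1, a surface glycoprotein of stem cells and T cells, followed the same order at lower levels, with 4.49, 4.72 and 5.63 FPKM in the double mutant, 2.3, 0.49 and 0.365 FPKM in ITD, and 0.139, 0.107 and 0.0642 FPKM in WT. Its difference from ITD was 1.65.

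Genes of cholesterol and fatty acid synthesis rose together. Of 31 tested, 22 rose and 1 fell, with a median of 0.67 against 0.17 over all genes; 18 rose with the size factor and 16 with quantile normalization, with 2 that fell in each. Fads1, a fatty acid desaturase, had 12, 12.5 and 16.6 FPKM in the double mutant and 4.68, 3.81 and 3.73 FPKM in WT (1.52 ± 0.23, limma adjusted p = 0.00162). Scd2, another desaturase, had 57.3, 61.8 and 82.3 FPKM in the double mutant and 26.2, 24.1 and 23.4 FPKM in WT. Idi1, an isomerase early in isoprenoid synthesis, rose by 1.09 ± 0.13 and Msmo1, a sterol oxidase, by 0.88 ± 0.13. The regulators Srebf1 and Srebf2 rose by 1.18 and 0.95, and Ebp, a sterol isomerase and the member that fell, changed by -0.41; these 3 were picked after their values were seen, and Ebp lost its call when any of the 3 WT libraries or double-mutant replicate 2 or 1 was left out. In ITD against WT 15 of the 31 rose and 0 fell (median 0.52; 7.36% of all tested genes rose), and in IRE1_KO against WT 0 passed in limma (median 0.19).

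MHC class I genes, which present peptides on the cell surface, rose in 16 of 24 tested members and fell in 0, with a median of 0.46; with the size factor 9 rose and 1 fell. H2-D1, a classical class I gene, had 747, 720 and 638 FPKM in the double mutant and 451, 409 and 501 FPKM in WT (0.63 ± 0.11, limma adjusted p = 0.00355). H2-Q8 had 49.3, 41.8 and 49.4 FPKM in the double mutant and 2.54, 1.35 and 4.07 FPKM in WT, but the H2-Q genes are near-identical copies and the split of reads among them is uncertain. Class II genes differed from this: 1 of 9 tested members, H2-DMa, rose against WT. Of the 9, 6 were lower in the double mutant than in ITD, against 0.694% of all tested genes. H2-Ab1, a class II beta chain picked after its values were seen, averaged 52.6 ± 33.6 FPKM in the double mutant, 477 ± 137 FPKM in ITD and 18.4 ± 4.64 FPKM in WT (SD, n = 3 each). Cd74, the class II invariant chain picked likewise, averaged 74.4 ± 63.2 FPKM in the double mutant, 854 ± 285 FPKM in ITD and 44.3 ± 21 FPKM in WT. The differences of the double mutant from ITD were -3.30 for H2-Ab1 (limma adjusted p = 0.0104) and -3.79 for Cd74 (limma adjusted p = 0.0145). The 6 class II genes became 0 without ITD replicate 3, with sex as a covariate, or with only the double-mutant and ITD libraries in the fit, 2 without ITD replicate 2 and 1 without double-mutant replicate 1; the ITD libraries are all female.

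Interferon-response genes went in both directions. Of 41 tested, 5 rose and 9 fell, with a median of -0.40. Over all tested genes 17.2% rose and 5.96% fell, with a median of 0.17, so that the rises were below and the falls above these shares. The 5 were guanylate-binding and related GTPase genes, among them Gbp7 with 32.5, 44 and 37.2 FPKM in the double mutant and 7.71, 9.69 and 10.6 FPKM in WT. The others were Gbp3 (0.92 ± 0.14) and Gbp5 (1.25 ± 0.21), besides Gbp2 and Igtp, added to complete the count. Gbp5 passed the filter through the double mutant alone, and 1 of the 9 that fell passed it through WT alone. Under both other scalings Gbp2 and Igtp did not pass (limma adjusted p 0.05 to 0.18 over all settings that lost either). Isg20, an exonuclease of antiviral defence, had 3.74, 2.28 and 1.95 FPKM in the double mutant and 13.7, 13.3 and 17.5 FPKM in WT (-2.13 ± 0.24, limma adjusted p = 0.000389). The 9 that fell became 2 without WT replicate 3, 3 without double-mutant replicate 3 and 20 without ITD replicate 1, and the 5 that rose became 3 without WT replicate 3, WT replicate 1 or double-mutant replicate 2. Irf8 and Irf5, transcription factors of the monocyte and dendritic lineages, rose by 1.11 ± 0.13 and 1.03 ± 0.16.

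**Figure D4:**
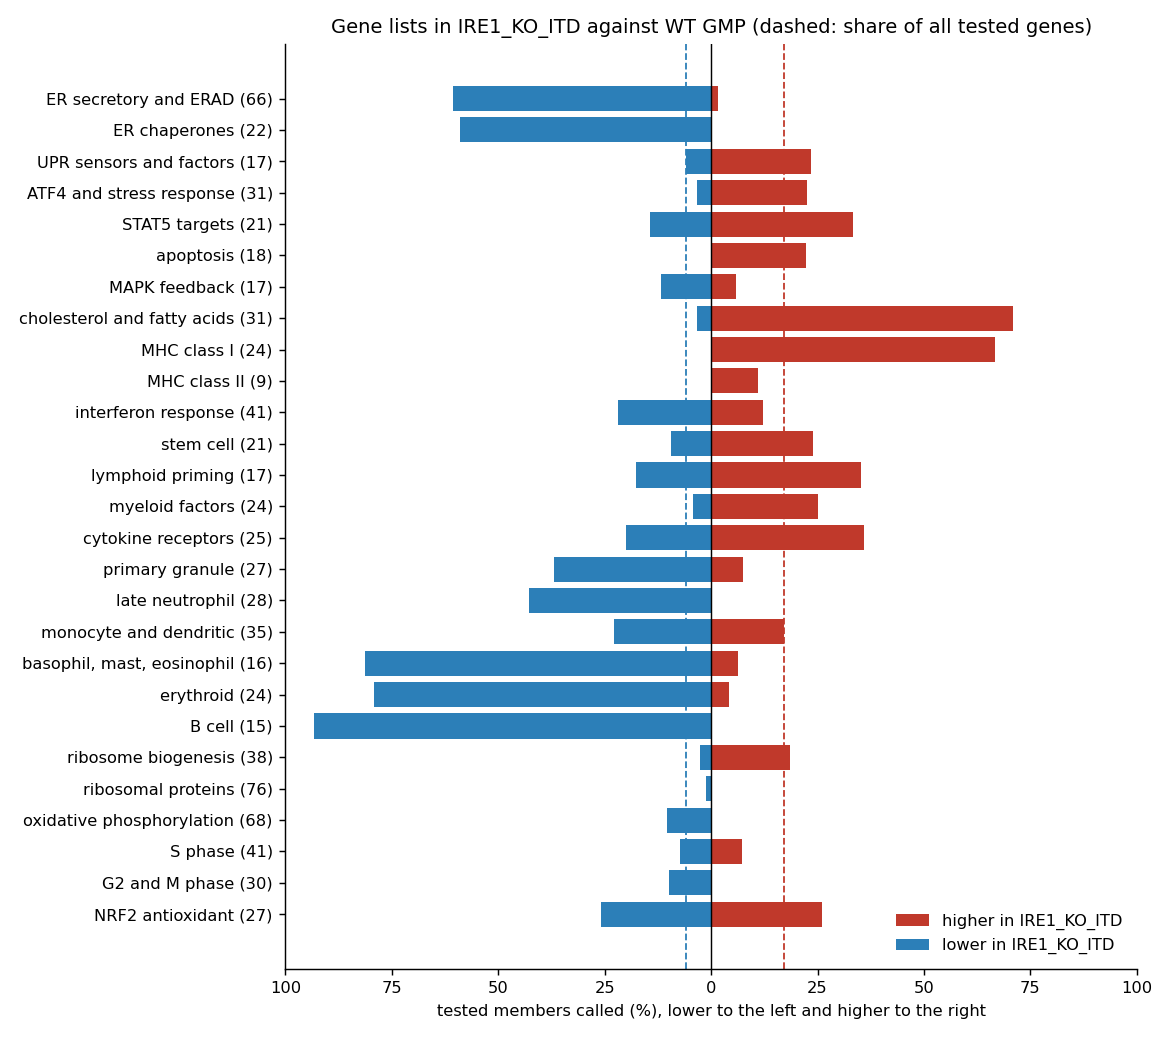
Share of the tested members of each gene list that passed the limma test, higher to the right in red and lower to the left in blue (horizontal axis, percent; members tested in brackets). The dashed lines at 17.2% and 5.96% are the shares over all tested genes; the 22 of 31 cholesterol and fatty acid genes and the 40 of 66 secretory genes lie beyond them.

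Markers of red cells, B cells and basophils, mast cells and eosinophils were low in the double mutant. With no filter on low values, where 2.93% of 22219 genes fell and 6.71% rose, 21 of 31 erythroid genes fell and 1 rose (median -1.29). Of 24 B-cell genes 14 fell and 0 rose (median -1.92), and of 27 basophil, mast cell and eosinophil genes 13 fell and 1 rose (median -0.92). The filter left 24, 15 and 16 of these genes, of which 19, 14 and 13 fell, but 12, 11 and 4 of those that fell had passed it through WT alone. The erythroid gene that rose among those left was Nfe2, and the other gene that rose was Csf2rb2; both names were added to complete the counts, and Csf2rb2 did not pass without WT replicate 3, WT replicate 2 or double-mutant replicate 2. Klf1 (chr8:84901982-84905291), a master factor of red cell genes, had 0.274, 0.0666 and 0.198 FPKM in the double mutant and 4.76, 4.45 and 5.17 FPKM in WT (-2.30 ± 0.11). Car1, a red cell carbonic anhydrase, had 0, 0.0301 and 0 FPKM in the double mutant and 23, 33.9 and 31.2 FPKM in WT, and Cldn13, a claudin of erythroid cells, was listed at 0 in the 3 double-mutant libraries, against 5.45, 4.72 and 5.06 FPKM in WT. For each of these the groups did not overlap, and all 3 genes passed the filter through WT alone, as did Cd79a, Epx, Ear1 and Ear6. Cd79a, the signalling chain of the B-cell receptor, had 0.0271, 0.341 and 0.0522 FPKM in the double mutant and 9.14, 43.5 and 20.2 FPKM in WT. Prg2, the eosinophil major basic protein, had 11.4, 12.2 and 2.49 FPKM in the double mutant and 1430, 661 and 604 FPKM in WT, and Epx, the eosinophil peroxidase, fell by 4.66 ± 0.82. Ear1 and Ear6, eosinophil-associated ribonucleases, fell too, but they are near-identical copies whose reads may be split. The 14 B-cell genes became 9 without WT replicate 3, 8 without WT replicate 2 and 9 without double-mutant replicate 2.

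The FPKM of these lists and of lists for other cell types were summed in each library. Whether this RNA came from other cells in the sort or from the progenitors themselves was not tested. The erythroid list summed to 252 to 320 FPKM in the double mutant and 354 to 1170 FPKM in WT, the B-cell list to 48.3 to 55.2 FPKM in the double mutant and 118 to 417 FPKM in WT, and the basophil, mast cell and eosinophil list to 216 to 314 FPKM in the double mutant and 1110 to 2430 FPKM in WT. The number of genes with a group mean of at least 1 FPKM was 11 of 31 erythroid genes in the double mutant and 24 in WT, 4 of 24 B-cell genes in the double mutant and 18 in WT, and 8 of 27 basophil, mast cell and eosinophil genes in the double mutant and 18 in WT. Listed at 0 in all 3 double-mutant libraries were 3, 5 and 3 genes of these lists, and in all 3 WT libraries 0. Zeros were also more frequent over all genes in the double mutant. Double-mutant replicates 1, 2 and 3 had 32.3%, 30.6% and 33.7% of genes at 0, against 28.6%, 26.7% and 22.4% in WT. The T and natural killer cell list summed to 616 to 712 FPKM in the double mutant and 1110 to 1310 FPKM in WT, most of it Nkg7, a granule protein gene. Of its 3 tested members Nkg7 fell, and Thy1 and Lck, a kinase of the T-cell receptor, rose. The megakaryocyte list summed to 104 to 163 FPKM in the double mutant and 152 to 186 FPKM in WT, the stromal list to 78.1 to 92.3 FPKM in the double mutant and 82.4 to 124 FPKM in WT, and the monocyte and dendritic list to 3900 to 7100 FPKM in the double mutant and 5420 to 5730 FPKM in WT. Of 9 tested stromal genes 3 rose and 5 fell (3 of the 5 passed the filter through WT alone), and 3 fell without WT replicate 3 or 2 or double-mutant replicate 3 or 2. Spp1, the secreted bone protein osteopontin, had 40.1, 36.4 and 33.8 FPKM in the double mutant and 5.17, 10.1 and 8.72 FPKM in WT, and rose with Pdgfrb and Pecam1, the second of which lost its call under 13 settings, among them both other scalings and leaving out any library of either group (limma adjusted p 0.0527 to 0.133). Bglap, the osteocalcin gene of bone-forming cells, had 0.95, 1.31 and 0.0529 FPKM in the double mutant and 20.5, 29.4 and 21.8 FPKM in WT. The others that fell were Sparc, the near-identical copy Bglap2 and the collagen genes Col1a1 and Col1a2; Pecam1 and the collagens were added to complete the counts. Of 9 megakaryocyte genes 1 rose, the integrin gene Itgb3 (1.16 ± 0.21), and 2 fell, Itga2b, whose call was lost under 11 settings (limma adjusted p 0.0503 to 0.154), and Pf4, the platelet factor, with 2.76, 2.52 and 2.05 FPKM in the double mutant and 30.4, 63.7 and 62 FPKM in WT. Of 35 monocyte and dendritic genes 6 rose and 8 fell. The rises were near the share over all tested genes, of which 17.2% rose and 5.96% fell. Of the 6, 1 passed the filter through the double mutant alone, and of the 8, 2 passed it through WT alone. The 8 became 4 without WT replicate 2 or double-mutant replicate 3 and 5 without double-mutant replicate 2. In ITD GMP 17 of 24 erythroid and 10 of 15 B-cell genes fell against WT, where 3.27% of all tested genes fell. In IRE1_KO GMP 0 of either passed in limma, where 0.527% of all tested genes fell. Of these 24 and 15 genes, 12 and 11 had passed the filter through WT alone, the group that both comparisons share. The part that other cells in the sort play in any result was not tested.

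Late neutrophil genes and genes of the primary granules, which form earlier in the lineage, were often lower. Among all tested genes 5.96% fell and 17.2% rose, and with no filter 2.93% fell and 6.71% rose. Of 28 tested late neutrophil genes 12 fell, 2 of which passed the filter through WT alone, and 0 rose (median -2.33; 10 of 32 fell with no filter, median -1.97), and of 27 primary granule genes 10 fell and 2 rose (median -0.30). Retnlg, a secreted protein of mature neutrophils, had 7.94, 2.4 and 0.433 FPKM in the double mutant and 118, 139 and 132 FPKM in WT (-5.21 ± 1.10, limma adjusted p = 0.00843). The 3 double-mutant libraries were all below WT but far from each other. Elane and Prtn3, serine proteases of the primary granules, were still abundant: Elane had 6990, 5600 and 5530 FPKM in the double mutant and 11200, 11700 and 12200 FPKM in WT, and Prtn3 had 2670, 2600 and 2480 FPKM in the double mutant and 4750, 4820 and 4780 FPKM in WT. Their groups were apart, with differences of -0.96 ± 0.15 and -0.89 ± 0.11 (limma adjusted p = 0.00187 and 0.000572), but under quantile normalization neither passed and the sign of Elane turned, to 0.18 (limma adjusted p = 0.728). Under that scaling 6 primary granule genes fell and 4 rose. Together S100a8 and S100a9, calcium-binding proteins of mature neutrophils, took 1.98%, 0.764% and 0.193% of all FPKM in the double mutant and 7.71%, 5.97% and 5.66% in WT, and the late neutrophil list summed to 2530 to 19100 FPKM in the double mutant and 47100 to 68900 FPKM in WT; their part in the other results was not tested. The 12 late neutrophil genes became 7 without WT replicate 3, WT replicate 1 or double-mutant replicate 3, 6 without WT replicate 2 and 21 without ITD replicate 1. The 10 primary granule genes became 5 without WT replicate 3 and 6 without WT replicate 2, double-mutant replicate 3 or double-mutant replicate 2.

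Stem cell genes and myeloid transcription factors rose about as often as all tested genes, of which 17.2% rose with a median of 0.17. Of 21 tested stem cell genes 5 rose and 2 fell, and of 24 myeloid transcription factors 6 rose and 1 fell, with medians of 0.29 and 0.23. The 5 were Ifitm1, Mycn, Runx1, Meis1 and Hoxa9, and those that fell were Apoe and Gata2 among the stem cell genes and Cebpe, a factor of granulocyte maturation, among the myeloid factors; Hoxa9, Apoe, Gata2 and Cebpe were added to complete the counts. Neither Apoe nor Gata2 passed without WT replicate 3, WT replicate 2 or double-mutant replicate 2, 1 of them passed without most other single libraries, and Cebpe lost its call when any of the 3 WT libraries or double-mutant replicate 3 or 2 was left out. Runx1, a core factor of blood stem cells, had 20.2, 25.4 and 28 FPKM in the double mutant and 9.9, 7.99 and 8.09 FPKM in WT (1.40 ± 0.20, limma adjusted p = 0.00135). Meis1, a partner of HOX proteins, had 9.26, 7.62 and 8.79 FPKM in the double mutant and 3.37, 4.77 and 3.86 FPKM in WT. Mycn, a growth-promoting factor, had 5.38, 4.93 and 4.92 FPKM in the double mutant and 0.28, 0.931 and 0.699 FPKM in WT, and it stood 1.28 above ITD; it passed the filter through the double mutant alone. In all 3 genes the double-mutant libraries lay above the WT libraries. Of 25 cytokine receptor genes 9 rose and 5 fell. Il6st, the shared receptor chain gp130, rose by 1.70 ± 0.20, and Il1r1, the interleukin-1 receptor, by 1.72 ± 0.24. Epor, the erythropoietin receptor, fell by 1.22 ± 0.14 and passed the filter through WT alone. Csf2ra, Csf3r, Ifngr1 and Igf1r, added to complete the count, were the others that fell. The 9 became 4 without WT replicate 3, and the split was 6 and 6 with the size factor and 5 and 5 with quantile normalization. Of 17 lymphoid priming genes 6 rose, among them Notch1 (0.84 ± 0.13), and 3 fell. Those that fell were Blnk and, added to complete the count, Dntt and Ets1, and Blnk and Dntt passed the filter through WT alone. Under both other scalings 3 rose and 3 fell. The 6 became 3 without WT replicate 3 or double-mutant replicate 2, and the 3 became 1 without WT replicate 2 or double-mutant replicate 3.

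Cell cycle, ribosome and respiratory genes gave smaller changes. Over all tested genes, 17.2% rose and 5.96% fell. Of 41 S-phase genes 3 rose (Pola1, Pole and Ung, of DNA synthesis and repair) and 3 fell (Rfc3 and, added to complete the count, Rfc2 and Rrm2). Of 30 genes of G2 and M phase 3 fell, Birc5 (-0.55 ± 0.10), the survivin gene of cell division, Aurka (-0.43 ± 0.12), a mitotic kinase, and Cenpa (-0.30 ± 0.10), the centromeric histone. The calls of Aurka and Cenpa were lost without WT replicate 3, WT replicate 2, double-mutant replicate 2 or double-mutant replicate 1, and that of Cenpa also without WT replicate 1, double-mutant replicate 3 or IRE1_KO replicate 1 or 2 (limma adjusted p 0.0507 to 0.142). Without WT replicate 3 the calls of Pole, Ung and Rfc3 were lost, and those of Pole and Rfc3 also without double-mutant replicate 3 and that of Rfc3 without WT replicate 2 or double-mutant replicate 2 (limma adjusted p 0.0532 to 0.0958 over the 3 genes). Of 38 ribosome biogenesis genes 7 rose, near the share over all tested genes, and 1, Npm3, fell. Npm1, a nucleolar protein, rose by 0.45 ± 0.11, a call lost without WT replicate 3 or double-mutant replicate 2 (limma adjusted p 0.053 to 0.0874). The 7 became 0 without WT replicate 3, 3 without WT replicate 2, double-mutant replicate 3 or double-mutant replicate 2, and 12, 15 and 11 without ITD replicate 2, ITD replicate 1 and IRE1_KO replicate 3. Of 76 cytosolic ribosomal protein genes 0 rose and 1, Rpl10 (added to complete the count), fell, and of 68 oxidative phosphorylation genes 0 rose and 7 fell, or 24 with the size factor; 4 fell without WT replicate 2 and 11 without ITD replicate 1. Of 27 NRF2 targets 7 rose and 7 fell, and 1 of those that fell passed the filter through WT alone. Without WT replicate 3, WT replicate 1 or double-mutant replicate 1, 4 rose. Of 18 apoptosis genes 4 rose and 0 fell, among them Casp9 by 0.58 ± 0.12 (not under quantile normalization, limma adjusted p = 0.0551), Bcl2 and Bcl2l1.

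The double mutant differed from WT in LSK cells in part in another way and in part as in GMP. There, 5153 of 11786 tested genes passed (43.7%; 3625 higher and 1528 lower), and the GMP difference minus the LSK difference passed in 1885 genes (16.0%; 982 higher and 903 lower). That count was 1247 without WT GMP replicate 3, 1245 without WT LSK replicate 2 and 1221 without double-mutant LSK replicate 3. Of the 66 secretory genes, 35 had a lower difference in GMP than in LSK and 0 a higher one. Over all tested genes, 7.66% were lower. Of the 22 chaperones, 15 had a lower difference and 0 a higher one. In LSK itself 20 of the 66 secretory genes rose and 9 fell, with a median of 0.11 against 0.13 over all tested genes. Both counts were near the shares over all 11786 genes tested there, of which 3625 rose and 1528 fell. Dnajc3 changed by -0.88 in GMP and 0.87 in LSK, and the test of the difference gave -1.75 ± 0.16 (limma adjusted p = 1.98e-06). P4hb changed by -1.26 in GMP and 0.08 in LSK, a difference of -1.34 ± 0.12 (limma adjusted p = 2.5e-06). Of 17 lymphoid priming genes 11 were higher in this test and 0 lower (8.33% of all tested genes were higher), and of 76 ribosomal protein genes 29 were higher and 0 lower.

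**Figure D5:**
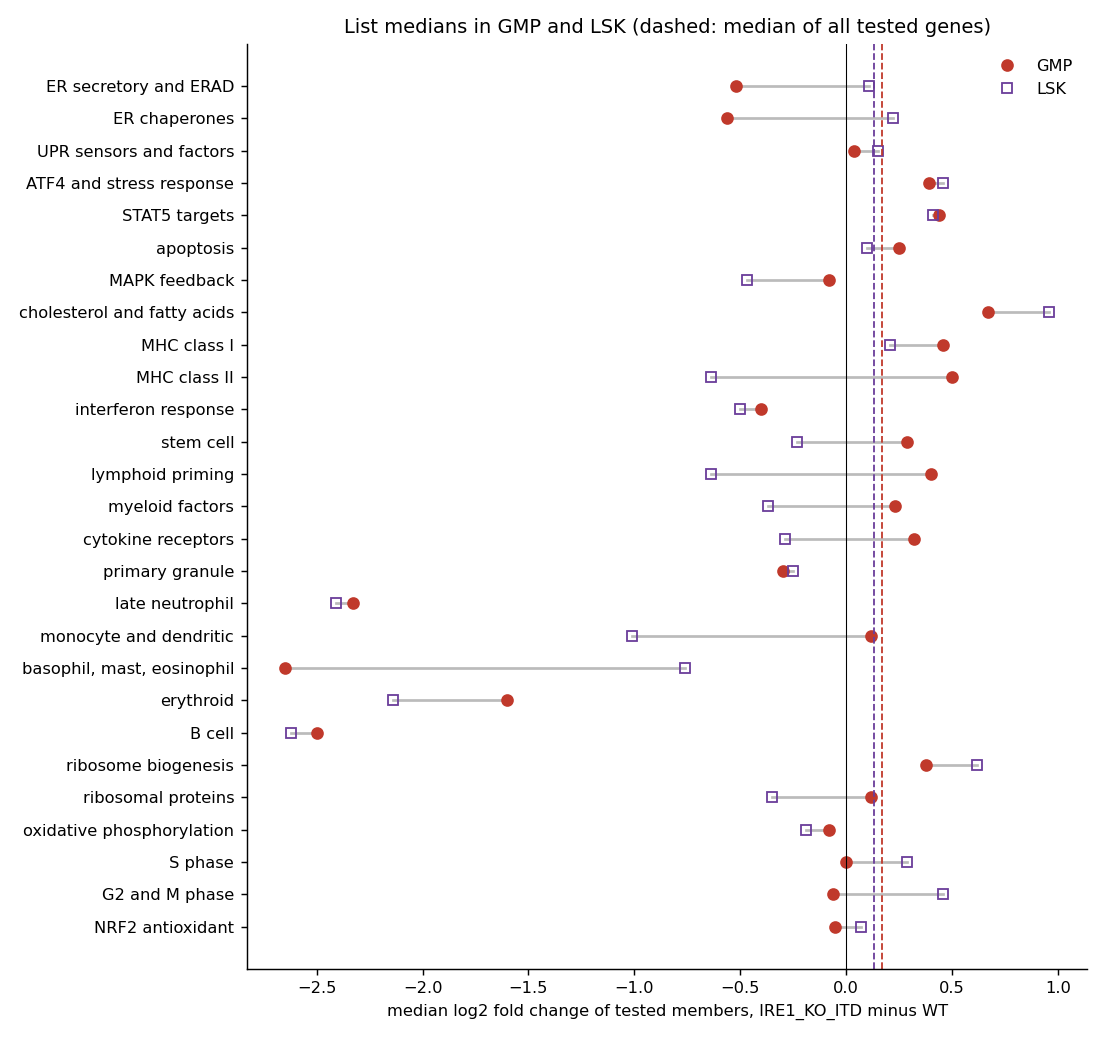
Median difference between double mutant and WT of each gene list in GMP (filled circles) and LSK (open squares), on the log2(FPKM + 1) scale of the horizontal axis. The dashed lines are the medians of all tested genes, 0.17 in GMP and 0.13 in LSK; the secretory list stands at -0.52 in GMP and 0.11 in LSK.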

How the data were processed

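RNA from sorted GMP and LSK cells was sequenced by the authors in 24 libraries, 3 per genotype and cell type. STAR, Cufflinks and the build mm10 are named in the submitters' processing notes, and their versions and settings were not given in the sources used here. All deposited values are FPKM, 1 per gene symbol and library, scaled by the authors to transcript length and library depth. The labels' protocols name SMART-Seq v4 and Nextera XT kits while the design text names TruSeq Stranded mRNA, a conflict not settled here, so reads of overlapping or antisense genes may be mixed.

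Linear models of log2(FPKM + 1) were made in R 4.3.3 with limma 3.58.1, whose moderated test used a trend of variance on mean. The 12 GMP libraries were fitted together (all 24 for GMP against LSK). Genes had at least 1 FPKM in 3 or more of the 6 double-mutant and WT libraries. P-values were adjusted by the Benjamini-Hochberg method over all tested genes, and a gene was called at an adjusted p under 0.05; differences are given with SE. The scale understates changes of low genes. The script was tested on simulated data.

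The members, the 36 gene lists (1037 of 1042 entries matched) and the tests were chosen with earlier results of these data known. Named genes were Ern1, Xbp1, Flt3, Kit, Socs2, Cish and Nov, the 12 highest and 12 lowest differences among called genes with a change of at least 1, no overlap and a mean of at least 5 FPKM, from each list with at least 3 called members, the 4 of smallest p, and up to 6 genes with the smallest p in the interaction, against ITD and in GMP minus LSK. Small RNAs, predicted genes, Xist and Y-linked genes were left out, and some genes that the rule names are not reported here. Alternatives were a pseudocount of 0.1, no filter, a mean of at least 5 FPKM, 2 other scalings, a replicate block, fewer libraries in the fit, sex as a covariate, no trend and each library left out. Coordinates and promoters came from RefSeq GRCm38.p6, which matched 23833 of 23991 symbols. Tables and figures used Python 3.11.15 with pandas 2.3.3, numpy 2.4.6 and matplotlib 3.10.9.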

Additional observations from a re-analysis of the deposited data

Results flagged for a closer look

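Of 131 named genes, 51 had a double-mutant difference from WT that differed between GMP and LSK in the limma test of the difference itself (adjusted p under 0.05), 24 with a higher and 27 with a lower value in GMP. Each value here is the GMP difference minus the LSK difference, on the log2(FPKM + 1) scale. Several genes were chosen for the smallest p in this same test. Among the 51, Socs2, Gbp5, Fcgr1, Cp and Epb4.1l4b passed the GMP filter through the double mutant alone. Sec24d, Creb3l2, Ccnd1, Gzmb, Ear6, Epx and Sparc passed it through WT alone. The GMP part of their values had to differ from 0, so their place in the count is no independent result. Among ER and unfolded protein response genes, the difference was -1.74 for Xbp1, -1.75 for Dnajc3, -1.34 for P4hb, -2.49 for Sec24d, -1.44 for Nucb2 and -0.87 for Sec61b. It was -0.84 for Creb3l2, -0.71 for Ssr2, -0.60 for Erp44, -0.57 for Dad1 and -0.49 for Ppib. Among signalling, survival and cell cycle genes, the difference was 2.48 for Flt3, 1.46 for Socs2, -2.32 for Pim2, 1.63 for Il6st, 1.34 for Il1r1, 1.35 for Notch1 and 0.88 for Meis1. It was 1.96 for Ccnd1, 1.18 for Ccnd2, -1.15 for Ccnd3, -0.52 for Birc5 and 2.25 for Samsn1. Among interferon, immune and surface genes, the difference was 1.21 for Gbp3, 1.54 for Gbp5, 1.39 for Gbp7, 1.39 for Ifitm1, -1.27 for Isg20, 0.87 for Irf5 and 0.86 for Fcgr1. It was 0.93 for Gimap1, -1.40 for Nkg7, -2.73 for Gzmb, -0.93 for Cst7 and -1.60 for Itga2b. Among eosinophil, basophil, neutrophil and stromal genes, the difference was -3.47 for Ear6, -3.96 for Epx and -2.79 for Prg3. It was -2.05 for Ms4a2, -2.77 for Pglyrp1 and -3.49 for Sparc. Among the others, the difference was 1.05 for Blvrb, 2.77 for Cp, 1.38 for Cyp27a1 and 1.16 for Epb4.1l4b. It was 2.23 for Myl10, -0.87 for Nars and -0.88 for Pgd. Xbp1 changed by 0.66 in GMP and 2.40 in LSK, Pim2 by 1.27 and 3.59, and Flt3 by 1.41 and -1.07. Ddx4, Ndn and Wfdc2, at 2.80, 3.19 and 3.04, were too low in GMP for the GMP test, and their values come from LSK differences of -2.84, -3.20 and -3.04. Groups of 3 libraries are too small for a search for outlying libraries.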

How the results depend on the processing

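Of 125 genes named in double mutant against WT, 27 changed their call under at least 1 alternative and 98 kept it under every alternative that tested them, 20 of which were not tested under all 21; the sign turned for Elane under quantile normalization (0.18). With a mean of at least 5 FPKM, 1199 genes were higher in the double mutant than in WT, 102 genes differed from ITD and 834 from IRE1_KO. With the size factor, 1165 were higher and 1220 lower, and IRE1_KO differed from WT in 92; with quantile normalization 1081 were higher. With only the libraries of the contrast, double mutant against ITD gave 4 genes and ITD against WT 413, and with sex as a covariate 12 and 242. Without the filter the interaction gave 3 genes. When each library was left out in turn, the counts ran from 1253 to 3187 for double mutant against WT (896 to 2367 higher, 357 to 820 lower), 16 to 771 against ITD, 724 to 1925 against IRE1_KO, 0 to 93 for the interaction, 1221 to 2179 for GMP minus LSK, 352 to 1588 for ITD against WT and 27 to 72 for IRE1_KO against WT. The leave-outs of ITD, IRE1_KO and LSK libraries were chosen after seeing the data. The cause of these shifts was not tested, apart from fewer genes or libraries in the fit.

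The labels give the groups the same replicate numbers. Between the GMP groups, deviations of same-numbered libraries correlated from -0.415 to 0.138 (median -0.017, 18 pairs). Those of other numbers correlated from -0.287 to 0.467 (median 0.026), so the numbers gave no sign of pairing among these groups. Whether GMP and LSK libraries of the same number are paired was not tested, and the main GMP minus LSK test treated them as unpaired. Sex matched by number between GMP and LSK in WT, IRE1_KO and ITD, but not in double-mutant replicates 2 and 3. With the replicate block, double mutant against WT gave 2005 genes, against ITD 34, ITD against WT 728 and IRE1_KO against WT 36. Read totals were not used, so no counting error is given for any value.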
